A study of Mus musculus with 36 samples.

Results

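Between days 2 and 7, mouse embryonic fibroblasts transduced with GHMT and kept without DMSO showed rises of heart muscle contractile transcripts and falls of interferon response transcripts. GHMT stands for the cardiac transcription factors Gata4, Hand2, Mef2c and Tbx5. The comparison used 6 of the 36 libraries of the study, 3 titled as day 7 GHMT and 3 titled as day 2 GHMT, chosen by their labels. The study also held untreated cells at day 21, cells with 1% DMSO at all 3 days, and uninfected cells on the same schedule, in 12 groups of 3 libraries.

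All groups were E12.5-13.5 embryonic fibroblasts carrying mCherry under the Myh6 promoter, a reporter of cardiomyocyte gene expression, grown in StemPro34 SFM with FGF2, FGF10 and VEGF. The day 2 and day 7 groups described here differ only in time by their labels, and both carry the 4 factors. The uninfected untreated groups at days 2 and 7 lack both the infection and the factors, and share the strain and medium. No group was infected without the factors. In a difference from uninfected cells, infection and factors therefore cannot be told apart. RNA came from bulk cultures, so fewer cells of a type and less RNA per cell cannot be told apart. Nothing in the labels says that replicates came from separate cultures or embryos, so the p-values reflect only how far these libraries spread, which may be technical.

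As background, forced expression of such factors can turn a share of fibroblasts toward a cardiomyocyte-like state, in which genes of the sarcomere, the contractile unit of striated muscle, are switched on. Fibroblasts also sense foreign nucleic acid, make type I interferons, and answer them through receptors that activate a common set of antiviral genes. Cycling fibroblasts express mitotic genes that cells leaving the cycle lose.

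Values are TPM, which scale each transcript count by length and each library to a fixed total. Changes are differences of log2(TPM + 1), day 7 minus day 2, with their standard error, and a gene was called at a Benjamini-Hochberg adjusted p under 0.05 in limma over all genes tested. "Rose" and "fell" are used for called genes. Of 20618 genes tested, 986 were called (4.78%), of which 681 rose (3.3%) and 305 fell (1.48%). Past 2-fold, 283 rose (1.37%) and 159 fell (0.771%). The median change of all genes was 0.16. Under median ratio scaling that median was 0.06, 932 of 20558 genes were called (4.53%), 447 rising (2.17%) and 485 falling (2.36%), so the excess of rises over falls depended on the scaling. With the replicate number as a block, 1374 genes were called (6.66%), 980 rising (4.75%) and 394 falling (1.91%). Single libraries weighed on the counts: 192 rose and 180 fell without day 2 replicate 1, 306 and 131 without day 2 replicate 2, 276 and 141 without day 7 replicate 1, and 282 and 165 without day 7 replicate 2.

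The protein-coding share of TPM was 59.6 ± 2.09% at day 2 and 61.2 ± 3.10% at day 7 (SD, n = 3; exact two-sided permutation p = 0.6, where 0.1 is the smallest such p with 3 against 3). Genes at 1 TPM or more numbered 15776 to 17242 per library at day 2 and 17634 to 18150 at day 7. The depth behind low values is unknown, since TPM does not carry it.

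Genes of the contractile apparatus were prominent among those that rose. Of the 20 thick filament genes listed, 12 passed the filter on low values, and 8 rose and none fell, with a median change of 2.55 against 0.16 for all genes. Of 17 thin filament genes, 15 were tested, 4 rose and none fell (median 0.87). Of 21 Z-disc and costamere genes, 16 were tested, 5 rose and none fell (median 0.49). These counts stand beside 3.3% of all genes tested that rose. A gene low at day 2 could pass the filter through a later group alone, so the counts and medians describe the tested members only. Without 1 library at a time, 6 to 8 thick filament genes, 3 to 5 thin filament genes and 3 to 4 Z-disc genes rose. The lowest Z-disc count came without replicate 1 at either day or without replicate 2 at day 7. With only the 6 libraries of the comparison, limma called rises of 5 of 10 thick filament, 3 of 11 thin filament and 0 of 14 Z-disc genes.

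Myh6, the alpha myosin heavy chain of adult mouse heart muscle, had the largest rise of all called genes. Its values were 0.457, 1.05 and 0.873 TPM at day 2 and 44.4, 85.8 and 37.04 TPM at day 7. Every day 7 library lay above every day 2 library, and the change was 4.90 ± 0.35, adjusted p = 1.52e-05. Actc1, the cardiac alpha actin, read 0.364, 1.23 and 0.771 TPM at day 2 and 25.2, 89.8 and 24.97 TPM at day 7. The groups did not overlap, and replicate 2 was highest at both days (4.50 ± 0.51, adjusted p = 0.000469). Tnni3, the troponin I isoform of the mature heart, measured 1.74, 6.21 and 4.17 TPM at day 2 and 36.1, 90.8 and 44.6 TPM at day 7, again with replicate 2 highest at day 7 (3.52 ± 0.48, adjusted p = 0.00121). Among all genes tested, the groups did not overlap in 27.4%, with day 7 higher in 21.6% and lower in 5.8%.

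Tnnc1, the slow and cardiac troponin C that binds calcium in the thin filament, was at 20.2, 45.3 and 26.4 TPM at day 2 and 384, 337 and 236 TPM at day 7, with no overlap (3.39 ± 0.29, adjusted p = 9.88e-05). Myl4, the atrial essential light chain, was at 9.81, 17.8 and 7.15 TPM at day 2 and 147, 178 and 80.5 TPM at day 7 (3.45 ± 0.40, adjusted p = 0.000469). Myl7, the atrial regulatory light chain, was at 28.8, 116 and 33.6 TPM at day 2 and 182, 485 and 199.6 TPM at day 7 (2.40 ± 0.56, adjusted p = 0.0264). Its lowest day 7 library lay above its highest day 2 library, but the call was lost without day 2 replicate 1 or 3 or day 7 replicate 2, with adjusted p up to 0.128. The titin gene Ttn, which runs from Z-disc to M-band as a molecular spring, rose from a mean of 1.04 to 12.1 TPM (2.71 ± 0.34, adjusted p = 0.00083). Mybpc3, cardiac myosin-binding protein C, rose from 1.35 to 18.3 TPM (3.02 ± 0.33, adjusted p = 0.00044), and the M-band gene Myom2 from 2.71 to 33.9 TPM (3.12 ± 0.34, adjusted p = 0.000467).

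**Figure D1:**
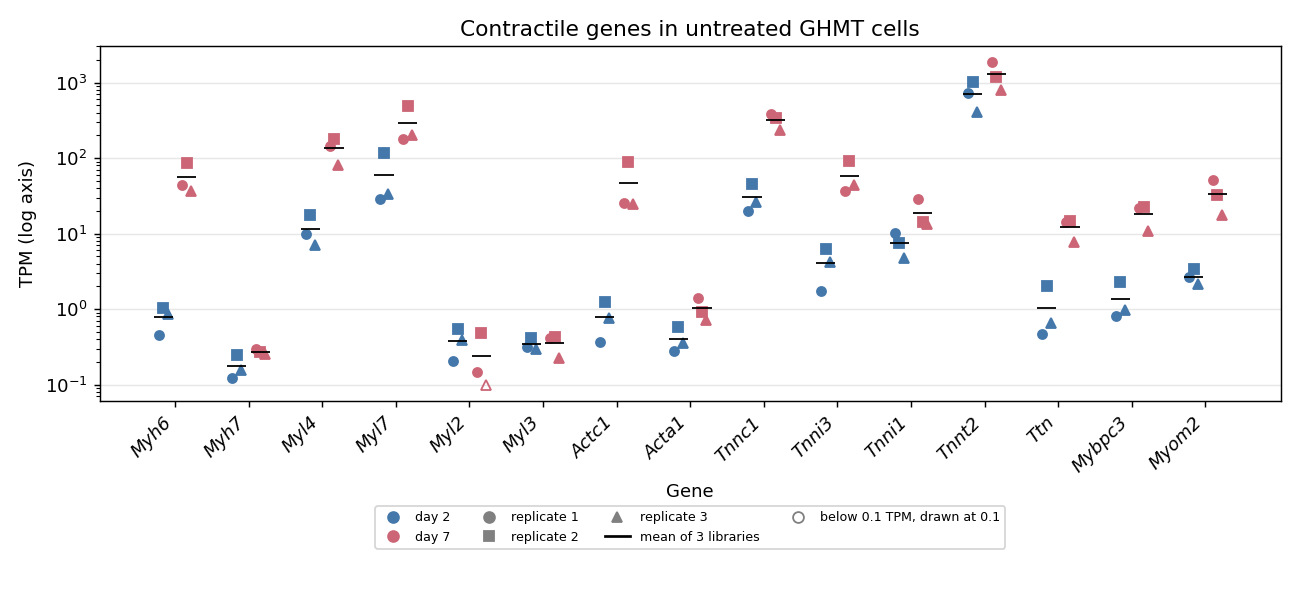
TPM on a log axis of 15 contractile genes in the 3 day 2 and 3 day 7 libraries of untreated GHMT cells, with marker shape for the replicate number and a line at the mean. Myh6 and Actc1 lie below 2 TPM in every day 2 library and above 20 TPM in every day 7 library, while Myh7, Myl2 and Myl3 stay below 1 TPM throughout and Tnnt2 is above 400 TPM already at day 2.

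Not all contractile genes were called. Myh7, the beta myosin heavy chain of slow muscle and fetal ventricle, was at 0.121, 0.249 and 0.156 TPM at day 2 and 0.298, 0.269 and 0.254 TPM at day 7 (change 0.12 ± 0.23, adjusted p = 0.808). Myl2 and Myl3, the ventricular light chains, had at most 0.540 and 0.433 TPM in any of the 6 libraries and did not pass the filter. Tnnt2, cardiac troponin T, was abundant from the start, with 721, 1001 and 406 TPM at day 2 and 1845, 1191 and 801 TPM at day 7. Its groups overlapped and the change was not called (0.86 ± 0.36, adjusted p = 0.185). The slow skeletal troponin Tnni1 was at 10.3, 7.43 and 4.72 TPM at day 2 and 28.98, 14.4 and 13.3 TPM at day 7. Its groups did not overlap, but it missed the call (1.20 ± 0.36, adjusted p = 0.0733). Skeletal actin Acta1 stayed low, at 0.279, 0.578 and 0.352 TPM at day 2 and 1.42, 0.922 and 0.719 TPM at day 7. It was not called, though its groups did not overlap (0.52 ± 0.22, adjusted p = 0.196). The fast skeletal troponin Tnnt3 rose from a mean of 1.82 to 13.1 TPM (2.22 ± 0.45, adjusted p = 0.0132), a call lost without replicate 1 of either day (adjusted p up to 0.0641).

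At the Z-disc, where thin filaments are anchored, Ldb3 was at 12.8, 20.3 and 15.5 TPM at day 2 and 68.9, 53.8 and 34.5 TPM at day 7, with no overlap (1.60 ± 0.25, adjusted p = 0.00278). Pdlim3 rose from a mean of 37.8 to 138 TPM (1.94 ± 0.37, adjusted p = 0.00938). Ankrd1, a stretch-responsive muscle protein, was already abundant at day 2 and read 284, 547 and 258 TPM at day 2 and 1511, 1073 and 764 TPM at day 7 (1.65 ± 0.31, adjusted p = 0.00865). Among smooth muscle genes, Myh11, the smooth muscle myosin heavy chain, rose from 11.8 to 55.7 TPM (2.20 ± 0.33, adjusted p = 0.00212), while Acta2, smooth muscle actin, was at 548, 664 and 590.0 TPM at day 2 and 2159.9, 935 and 738 TPM at day 7 and was not called (0.93 ± 0.38, adjusted p = 0.172).

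Promoter sequences of 5 called genes are shown because a motif of a muscle or interferon regulator lies in them. They were chosen after the values were seen. They are RefSeq sequences of GRCm38.p6, 250 bases before to 50 after an annotated start, read 5' to 3' on the gene's strand, with the motifs named for each gene in capitals. Motifs were searched on both strands of all 32851 promoter entries. A match describes letters and is not a measured binding site. The 3 contractile promoters follow, with the MEF2 motif (CTA, 4 bases of any kind, then TAG), the CArG box, the T-box motif GGTGTGA and the TATA box TATAAA in capitals. The Actc1 TATAAA, the Mybpc3 T-box motif and the Ldb3 MEF2 motif lie after the annotated start, from bases 33, 31 and 19. The TATAAA match is thus not placed upstream of that start. Actc1 lies at chr2:114052826-114053125, minus strand (CArG box and TATA box), Mybpc3 at chr2:91117894-91118193, plus strand (MEF2 and T-box) and 1 of the 2 Ldb3 entries at chr14:34588632-34588931, minus strand (CArG box and MEF2).
Actc1: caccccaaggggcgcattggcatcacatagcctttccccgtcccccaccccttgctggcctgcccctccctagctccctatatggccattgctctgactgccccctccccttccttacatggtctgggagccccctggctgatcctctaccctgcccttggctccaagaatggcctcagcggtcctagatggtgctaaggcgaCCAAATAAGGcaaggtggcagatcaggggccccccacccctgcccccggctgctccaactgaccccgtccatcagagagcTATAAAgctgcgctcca
Mybpc3: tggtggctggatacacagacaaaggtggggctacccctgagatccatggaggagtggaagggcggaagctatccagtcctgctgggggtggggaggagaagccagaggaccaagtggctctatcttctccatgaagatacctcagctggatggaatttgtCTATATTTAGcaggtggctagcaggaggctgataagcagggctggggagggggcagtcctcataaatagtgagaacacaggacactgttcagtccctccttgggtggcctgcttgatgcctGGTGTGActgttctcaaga
Ldb3: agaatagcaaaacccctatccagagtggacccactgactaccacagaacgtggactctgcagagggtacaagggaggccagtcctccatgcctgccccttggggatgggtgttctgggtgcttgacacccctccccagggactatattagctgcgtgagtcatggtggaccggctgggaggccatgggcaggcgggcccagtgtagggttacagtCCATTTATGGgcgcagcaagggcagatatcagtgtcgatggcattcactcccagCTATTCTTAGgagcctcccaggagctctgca

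The MEF2 motif was in 6 of the 14 Z-disc genes with a promoter entry, 2 of 18 thick filament genes and 0 of 12 thin filament genes. It was also in 2 of 19 interferon response genes, against 4.23% of 27025 genes. The CArG box was in 3 of 18 thick filament, 3 of 12 thin filament, 1 of 14 Z-disc and 0 of 19 interferon response genes, against 1.81%. The T-box motif was in 1 of 18 thick filament, 2 of 12 thin filament and 3 of 14 Z-disc genes and in 4 of 19 interferon response genes, against 4.6%, and the TATA box in 6 of 18, 3 of 12, 3 of 14 and 4 of 19, against 15.7%. The GATA motif AGATAA was in 4 of 18, 2 of 12, 1 of 14 and 6 of 19 in the same order, against 12.7%.

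Among cardiac regulators, the 4 transduced factors were not called: Gata4 went from a mean of 111 to 145 TPM (0.39 ± 0.23, adjusted p = 0.343), Hand2 from 106 to 151 (0.50 ± 0.26, adjusted p = 0.29), and Tbx5 from 122 to 188 (0.59 ± 0.23, adjusted p = 0.147). Mef2c was at 1180.1, 767 and 739 TPM at day 2 and 1551, 655 and 684 TPM at day 7 (0.02 ± 0.33, adjusted p = 0.983), with replicate 1 highest at both days, and its change was -0.11 under median ratio scaling. No label says whether transduced and resident transcripts share 1 entry. Of 23 cardiac transcription regulators listed, 18 were tested, 2 rose and none fell (median 0.43), beside 3.3% of all genes that rose. Without replicate 1 of either day or replicate 2 of day 7, 1 rose.

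Those 2 were Tbx20 and Myocd. Tbx20, a T-box factor of the developing heart, was at 1.27, 2.47 and 3.08 TPM at day 2 and 17.9, 42.6 and 28.9 TPM at day 7, without overlap (3.20 ± 0.31, adjusted p = 0.000174). Myocd encodes myocardin, a coactivator of serum response factor, and was at 3.78, 7.98 and 7.30 TPM at day 2 and 26.4, 21.3 and 12.5 TPM at day 7 (1.51 ± 0.35, adjusted p = 0.0249). Its call was lost without replicate 1 of either day or day 7 replicate 2, with adjusted p up to 0.125. Nkx2-5, an early cardiac homeobox gene, was listed at 0 in 5 of the 6 libraries and at 0.0199 TPM in day 7 replicate 1.

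Channels and calcium handling genes rose in part, beside 3.3% of all genes tested that rose. Of 21 cardiac ion channel and connexin genes, 15 were tested, 6 rose and none fell (median 0.52). When 1 library was left out 3 to 8 rose, the lowest without day 2 replicate 1. With only the 6 libraries of the comparison, 2 of 12 tested rose. Hcn4, the pacemaker channel, was at 0.974, 2.49 and 1.95 TPM at day 2 and 15.1, 16.3 and 10.6 TPM at day 7, with no overlap (2.44 ± 0.36, adjusted p = 0.00183). Kcnj5, a subunit of the acetylcholine-gated potassium channel of atria, was at 0.268, 0.587 and 0.464 TPM at day 2 and 5.89, 8.78 and 5.08 TPM at day 7 (2.37 ± 0.27, adjusted p = 0.000469). The connexin Gja1 was at 81.2, 103 and 90.9 TPM at day 2 and 146, 136 and 98.5 TPM at day 7 and was not called (0.45 ± 0.17, adjusted p = 0.134).

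Of 16 calcium handling genes, 14 were tested, 3 rose and none fell (median 0.62), beside 3.3% of all genes that rose. With only the 6 libraries of the comparison, 1 of 12 tested rose. Ryr2, the calcium release channel of the cardiac sarcoplasmic reticulum, was at 1.77, 5.27 and 2.99 TPM at day 2 and 21.2, 21.6 and 11.4 TPM at day 7 (2.16 ± 0.37, adjusted p = 0.00485). Srl, encoding sarcalumenin, rose from a mean of 4.29 to 20.5 TPM (2.005 ± 0.36, adjusted p = 0.00584). The calcium pump Atp2a2 was at 111, 159.9 and 155 TPM at day 2 and 311, 237 and 166 TPM at day 7 and its inhibitor Pln at 0.889, 1.80 and 0.784 TPM at day 2 and 2.22, 7.24 and 2.66 TPM at day 7. Neither was called (0.72 ± 0.23, adjusted p = 0.0882, and 1.12 ± 0.38, adjusted p = 0.103).

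Corin, the protease that cleaves the precursor of atrial natriuretic peptide, rose from a mean of 24.5 to 75.5 TPM (1.71 ± 0.30, adjusted p = 0.00559). Nppa, which encodes that precursor, was at 1.05, 2.22 and 0.489 TPM at day 2 and 13.4, 11.9 and 4.12 TPM at day 7. Its groups did not overlap, but the adjusted p was 0.07, and 0.0477 with the replicate block, so its call rests on that choice. Nppb was at 0.720, 3.09 and 0.572 TPM at day 2 and 6.80, 5.45 and 2.07 TPM at day 7, with overlap (1.27 ± 0.59, adjusted p = 0.233). Of 17 muscle energy genes, 14 were tested and 2 rose, Hspb7 and Cox7a1, beside 3.3% of all genes. With the block 5 rose. Without replicate 1 or 2 of either day, 1 rose.

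Interferon response genes had more falls than any other list in the fit of all libraries, while without day 7 replicate 3 the mitosis list had 20 against 10. Of 26 listed and tested, 11 fell and 1 rose, and 25 had a negative change, against 1.48% of all genes that fell. Their median change was -1.18. The count that fell depended on single libraries: it was 4 without day 2 replicate 1, 6 without day 2 replicate 2, 8 without day 2 replicate 3, 6 without day 7 replicate 1, 5 without day 7 replicate 2 and 10 without day 7 replicate 3. Summed over the list, TPM was 14016, 14077 and 11687 at day 2 and 4748, 5269 and 6348 at day 7.

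Mx1, a GTPase that blocks virus replication, was at 416, 422 and 307 TPM at day 2 and 23.03, 31.4 and 64.1 TPM at day 7, with no overlap (-3.36 ± 0.47, adjusted p = 0.00148). Ifit2, which binds viral RNA, was at 1128, 1065 and 608 TPM at day 2 and 133, 114 and 143 TPM at day 7 (-2.79 ± 0.53, adjusted p = 0.00915). Cxcl10, a chemokine induced by interferon, was at 634, 502 and 432 TPM at day 2 and 66.2, 46.8 and 146 TPM at day 7 (-2.73 ± 0.54, adjusted p = 0.0113). Its call was lost without day 2 replicate 1 or day 7 replicate 2 (adjusted p up to 0.056). Rsad2, which encodes viperin, was at 558, 592 and 469 TPM at day 2 and 82.4, 84.3 and 147 TPM at day 7 (-2.40 ± 0.60, adjusted p = 0.0351), and its call was lost in turn without any day 2 library and without day 7 replicate 1 or 2 (adjusted p up to 0.118). Oasl1 fell from a mean of 116 to 22.1 TPM (-2.38 ± 0.45, adjusted p = 0.00885), and the exonuclease gene Isg20 from 50.5 to 15.5 TPM (-1.72 ± 0.25, adjusted p = 0.00164).

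Members that were not called remained abundant at day 7. Ifit3 was at 2795, 2772 and 2113 TPM at day 2 and 742, 891 and 960.0 TPM at day 7 (adjusted p = 0.0826) and Isg15, a ubiquitin-like modifier, at 1022, 938 and 764 TPM at day 2 and 388, 349.8 and 506 TPM at day 7 (adjusted p = 0.136). Neither pair of groups overlapped. Ifi27, an interferon-induced gene, went the other way and was at 65.6, 52.2 and 46.7 TPM at day 2 and 322, 192 and 133 TPM at day 7 (1.88 ± 0.30, adjusted p = 0.00301).

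Genes encoding interferons also fell. Ifnb1, encoding interferon beta, was at 51.9, 43.6 and 41.8 TPM at day 2 and 3.99, 6.44 and 6.75 TPM at day 7 (-2.82 ± 0.64, adjusted p = 0.0222). All 3 day 7 libraries lay below all 3 day 2 libraries, but the call was lost without replicate 1 or 2 of either day (adjusted p up to 0.0872). Ifna4, an interferon alpha gene, was at 28.1, 16.1 and 22.2 TPM at day 2 and 0.403, 1.96 and 0.977 TPM at day 7 (-3.48 ± 0.51, adjusted p = 0.00182). Interferon alpha genes are near-identical copies, so how reads divided among them is uncertain. The receptor genes Ifnar1 and Ifnar2 averaged 33.5 and 55.4 TPM at day 2 and 37.6 and 54.9 TPM at day 7, and neither was called (adjusted p = 0.456 and 0.958).

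Among further large falls, Ifit1bl1 was at 110.4, 144 and 59.4 TPM at day 2 and 3.74, 3.90 and 14.1 TPM at day 7 (-3.81 ± 0.54, adjusted p = 0.00148), Phf11b fell by 2.61 and Cmpk2, a mitochondrial nucleotide kinase, fell by 2.34 on the log2 scale (adjusted p = 0.00641 and 0.00616). The GTPase genes Tgtp1 and Tgtp2 fell by 2.73 and 2.57. Tgtp1 lost its call without replicate 1 or 2 of either day and Tgtp2 without day 7 replicate 1 (adjusted p up to 0.07 and 0.0554). Ifit1bl1, Phf11b, Tgtp1 and Tgtp2 have close paralogs, and their separate values are uncertain.

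**Figure D2:**
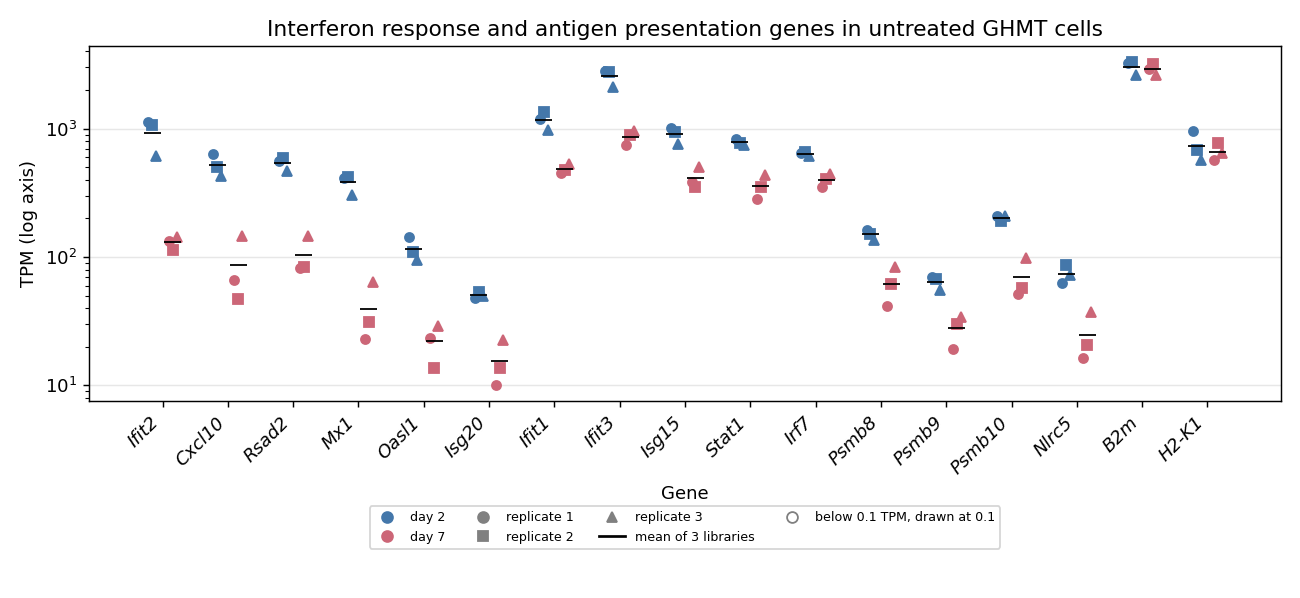
TPM on a log axis of 17 interferon response and antigen presentation genes in the 6 libraries, drawn as for the contractile genes. Ifit2, Cxcl10, Rsad2 and Mx1 lie above 300 TPM in every day 2 library and below 150 TPM in every day 7 library, while B2m and H2-K1 overlap between the days.

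The interferon-stimulated response element, searched as GAAA, 2 bases of any kind and GAAA, was in 11 of the 19 interferon response genes with a promoter entry, against 3.99% of 27025 genes, and in 2 of 9 MHC class I genes. It is in capitals, as its reverse complement where it lies on the opposite strand (Rsad2), in the promoters of 2 genes named above, Cxcl10 at chr5:92348840-92349139, minus strand and Rsad2 at chr12:26456403-26456702, minus strand.
Cxcl10: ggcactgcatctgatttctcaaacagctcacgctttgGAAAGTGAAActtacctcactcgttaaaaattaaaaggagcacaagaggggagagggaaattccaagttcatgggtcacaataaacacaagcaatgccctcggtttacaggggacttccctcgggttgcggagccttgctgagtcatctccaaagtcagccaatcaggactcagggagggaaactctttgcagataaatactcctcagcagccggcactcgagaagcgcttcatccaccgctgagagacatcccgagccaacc
Rsad2: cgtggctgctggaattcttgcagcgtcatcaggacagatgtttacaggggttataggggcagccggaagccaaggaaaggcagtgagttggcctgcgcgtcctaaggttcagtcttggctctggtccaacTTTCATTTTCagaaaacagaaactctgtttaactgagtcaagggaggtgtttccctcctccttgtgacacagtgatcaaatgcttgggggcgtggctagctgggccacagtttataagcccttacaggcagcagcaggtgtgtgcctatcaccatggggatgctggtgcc

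Genes of antigen processing fell in part. Of 11 MHC class I presentation genes tested, 5 fell and none rose (median -0.64), beside 1.48% of all genes that fell. The count was 2 without replicate 1 or 2 of day 2 or replicate 1 of day 7, and 3 without day 7 replicate 2. Psmb10, an immunoproteasome subunit, was at 209, 192 and 208 TPM at day 2 and 51.3, 57.8 and 99.1 TPM at day 7, with no overlap (-1.59 ± 0.21, adjusted p = 0.00106). The peptide transporter Tap1 fell from a mean of 195 to 111 TPM (-0.82 ± 0.14, adjusted p = 0.00497). The other 3 were Psmb8, Psmb9 and Nlrc5, a transactivator of MHC class I genes. Psmb8 and Nlrc5 lost their calls without replicate 1 or 2 of either day, and Psmb9 without replicate 1 or 2 of day 2 or replicate 1 of day 7 (adjusted p up to 0.102, 0.117 and 0.0814). B2m, the shared light chain, was at 3234, 3283 and 2610.4 TPM at day 2 and 2935, 3193 and 2631 TPM at day 7 (change -0.06 ± 0.23, adjusted p = 0.916), and H2-K1 and H2-D1, the heavy chains, were not called (adjusted p = 0.824 and 0.593).

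Chemokines and cytokines went both ways, with 3 rises and 2 falls among 17 listed genes tested. These counts stand beside 3.3% of all genes that rose and 1.48% that fell. No fall was called without replicate 1 of either day, and 1 was without replicate 2 of either day. Ccl17, a ligand of Ccr4, is not in that list and was among the largest rises of all genes. It was at 0, 0.279 and 0.180 TPM at day 2 and 6.90, 7.86 and 8.46 TPM at day 7 (2.93 ± 0.28, adjusted p = 0.000174). Cx3cl1, the membrane-bound chemokine, rose from 1.94 to 10.2 TPM (1.81 ± 0.35, adjusted p = 0.00999), and Cxcl14 from 1.31 to 3.48 TPM (0.94 ± 0.16, adjusted p = 0.00402). Ccl5 fell from 89.7 to 27.8 TPM (-1.61 ± 0.34, adjusted p = 0.0169), a call lost without replicate 1 of either day (adjusted p up to 0.0863).

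Macrophages can also answer interferon, so their markers were read beside these groups. Of 17 macrophage and leukocyte markers, all were tested and none was called in either direction by limma, with 0 at an unadjusted p under 0.05 (median -0.07). With the replicate block Mrc1 was called (adjusted p = 0.014). Summed, the markers were at 182, 401 and 64.3 TPM at day 2 and 156, 428 and 62.6 TPM at day 7, replicate 2 being highest and replicate 3 lowest at both days. None of the 17 was at 0 in all libraries of a day. Their part in the interferon result was not tested.

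Mitotic transcripts were lower at day 7 in a way that differed between libraries. All 25 mitosis genes tested had a negative change, with a median of -1.42, beside 6654 of all 20618 genes tested. But 1 was called, and 10 with the replicate block, beside 1.48% and 1.91% of all genes that fell. An unadjusted p under 0.05 in limma was seen for 21. Without day 7 replicate 3, 20 of the 25 were called, and without any other single library 0. Summed TPM of the list was 521, 671 and 774 at day 2 and 124, 212 and 504 at day 7, so replicate 3 was highest at both days and its day 7 value was close to the lowest day 2 value.

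Mki67, a marker of cycling cells, was at 13.5, 20.8 and 27.98 TPM at day 2 and 2.25, 7.35 and 20.03 TPM at day 7. Its groups overlapped and it was not called (-1.33 ± 0.67, adjusted p = 0.272). The called gene, the spindle assembly factor Tpx2, was at 31.6, 38.2 and 40.5 TPM at day 2 and 4.16, 10.4 and 23.9 TPM at day 7 (-1.73 ± 0.43, adjusted p = 0.0341), and its call was lost without each library except day 7 replicate 3 (adjusted p up to 0.118). Of 23 DNA replication genes tested, 3 fell and none rose (median -0.60), beside 1.48% of all genes that fell. They were Mcm6, Mcm7 and Prim1. Mcm6, a subunit of the replicative helicase, was at 130.2, 132 and 129 TPM at day 2 and 24.02, 31.8 and 69.02 TPM at day 7, with no overlap (-1.77 ± 0.33, adjusted p = 0.00788). Without day 7 replicate 3, 9 of the 23 fell, and without any other single library 1. Mcm7 and Prim1 lost their calls without each of those 5 libraries (adjusted p up to 0.139 and 0.112).

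**Figure D3:**
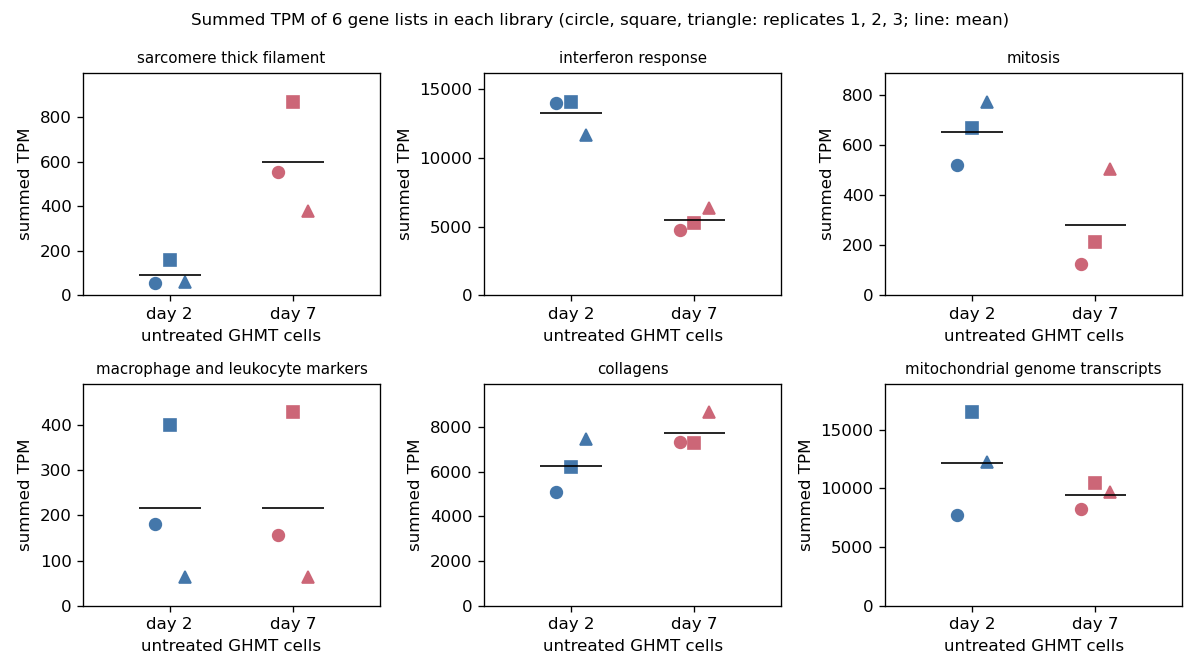
Summed TPM of 6 gene lists in each library of untreated GHMT cells at days 2 and 7, on linear axes from 0, with marker shape for the replicate and a line at the mean. The interferon and thick filament sums separate the days, the mitosis sum of day 7 replicate 3 stays near the day 2 libraries, and the macrophage sum is highest in replicate 2 and lowest in replicate 3 at both days.

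Fibroblast identity genes gave 1 call. Of 22 fibroblast regulators and surface markers, 21 were tested and 1 rose, beside 3.3% of all genes that rose. Among those tested, 13 had a positive and 8 a negative change (median 0.09), and 4 had an unadjusted p under 0.05 in limma. The gene that rose was Ddr2, a collagen receptor, from a mean of 117 to 178 TPM (0.60 ± 0.11, adjusted p = 0.00757). Prrx1, Twist1, Thy1 and Pdgfra, markers of embryonic fibroblasts, were at means of 169.7, 19.5, 155 and 93.5 TPM at day 7, and none was called.

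Matrix genes rose in part, beside 3.3% of all genes tested that rose. None of 22 collagen genes was called in limma, 9 had an unadjusted p under 0.05, and 3 were with the replicate block (Col4a2, Col8a1 and Col8a2, named after their values were seen), with a median of 0.73. Without day 2 replicate 3, 3 were called, and without day 7 replicate 2, 1. Col1a1, the main fibrillar collagen chain, was at 319, 419 and 1012 TPM at day 2 and 918, 812 and 1247 TPM at day 7 (0.93 ± 0.40, adjusted p = 0.196). Of 26 fibroblast matrix genes tested, 4 rose and none fell, and the count was 1 without replicate 1 or 2 of day 2 or replicate 1 of day 7 and 2 without day 7 replicate 2 or 3. Comp, which encodes a cartilage matrix protein, was at 1.35, 2.48 and 4.15 TPM at day 2 and 11.5, 20.6 and 22.7 TPM at day 7, with no overlap (2.42 ± 0.40, adjusted p = 0.00396). Postn, encoding periostin, was at 754, 968 and 961 TPM at day 2 and 559.6, 545 and 626 TPM at day 7; all day 7 libraries were lower but the change was not called (-0.62 ± 0.26, adjusted p = 0.191).

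Among matrix proteases and inhibitors, 4 of 19 tested rose and none fell, beside 3.3% of all genes that rose. Adamts2, which trims procollagen, was at 24.2, 25.4 and 47.9 TPM at day 2 and 117, 119 and 131 TPM at day 7 (1.95 ± 0.27, adjusted p = 0.00139). Timp3, an inhibitor of matrix metalloproteinases, rose from a mean of 275 to 576 TPM (1.05 ± 0.14, adjusted p = 0.0011). Adamtsl2, a secreted microfibril-associated protein outside that list, was 1 of the 12 largest rises, which were picked among genes without overlap. It was at 6.15, 6.07 and 9.01 TPM at day 2 and 78.1, 38.97 and 50.3 TPM at day 7 (2.77 ± 0.33, adjusted p = 0.000645).

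Calls in the signalling lists, beside 3.3% of all genes that rose, were as follows: 2 of 22 TGF-beta and BMP genes, 3 of 21 Wnt genes, 2 of 21 FGF and VEGF genes and 3 of 15 genes of the insulin-like growth factor axis rose, and none of these lists had a fall. Without day 2 replicate 1 none of the 4 lists had a rise. Without day 2 replicate 2 each had 1; without day 7 replicate 1 the counts were 1, 1, 0 and 0, without day 7 replicate 2 they were 0, 2, 0 and 0, and without day 7 replicate 3 they were 1, 2, 2 and 2. Without day 2 replicate 3, 5 Wnt genes rose, and with the replicate block 4 TGF-beta and BMP genes did. Under median ratio scaling the counts were 1, 2, 2 and 1. Sfrp1, a secreted Wnt antagonist, rose from 20.8 to 57.1 TPM (1.48 ± 0.29, adjusted p = 0.0109), a call lost without day 2 replicate 1 (adjusted p = 0.0559). Of 11 Notch genes tested, 1 fell, the ligand Dll1, from 3.11 to 1.01 TPM (-1.05 ± 0.20, adjusted p = 0.00999); the call was lost without day 7 replicate 1 or 2 (adjusted p up to 0.0512).

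Markers of other lineages were mostly low. The counts of calls stand beside 3.3% of all genes tested that rose and 1.48% that fell. Of 16 skeletal myogenic regulators 3 were tested and none was called by limma, with 0 at an unadjusted p under 0.05, and Myod1 and Myog did not exceed 0.0385 and 0.0671 TPM in any of the 6 libraries. All 6 haemoglobin genes listed were at 0. Of 15 endothelial markers 8 were tested and none was called by limma, with 1 at an unadjusted p under 0.05, and Sox17 was at 0. Of 15 epicardial, mesothelial and epithelial markers 13 were tested, 8 had a positive and 5 a negative change (median 0.15), and 1 rose. That was Msln, a mesothelial marker, which was at 72.05, 77.9 and 62.4 TPM at day 2 and 198, 204 and 194 TPM at day 7, with no overlap (1.48 ± 0.21, adjusted p = 0.00148). Of 15 cartilage and bone markers 9 were tested, Alpl and Sox9 rose and Tnmd fell. Sox9, a cartilage regulator, lost its call without each library in turn except day 2 replicate 3 (adjusted p up to 0.183), and Tnmd without day 2 replicate 2 (adjusted p = 0.0546). Alpl, a phosphatase of bone-forming cells, was at 1.36, 1.47 and 1.52 TPM at day 2 and 14.3, 12.3 and 6.66 TPM at day 7 (2.24 ± 0.33, adjusted p = 0.00183).

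**Figure D4:**
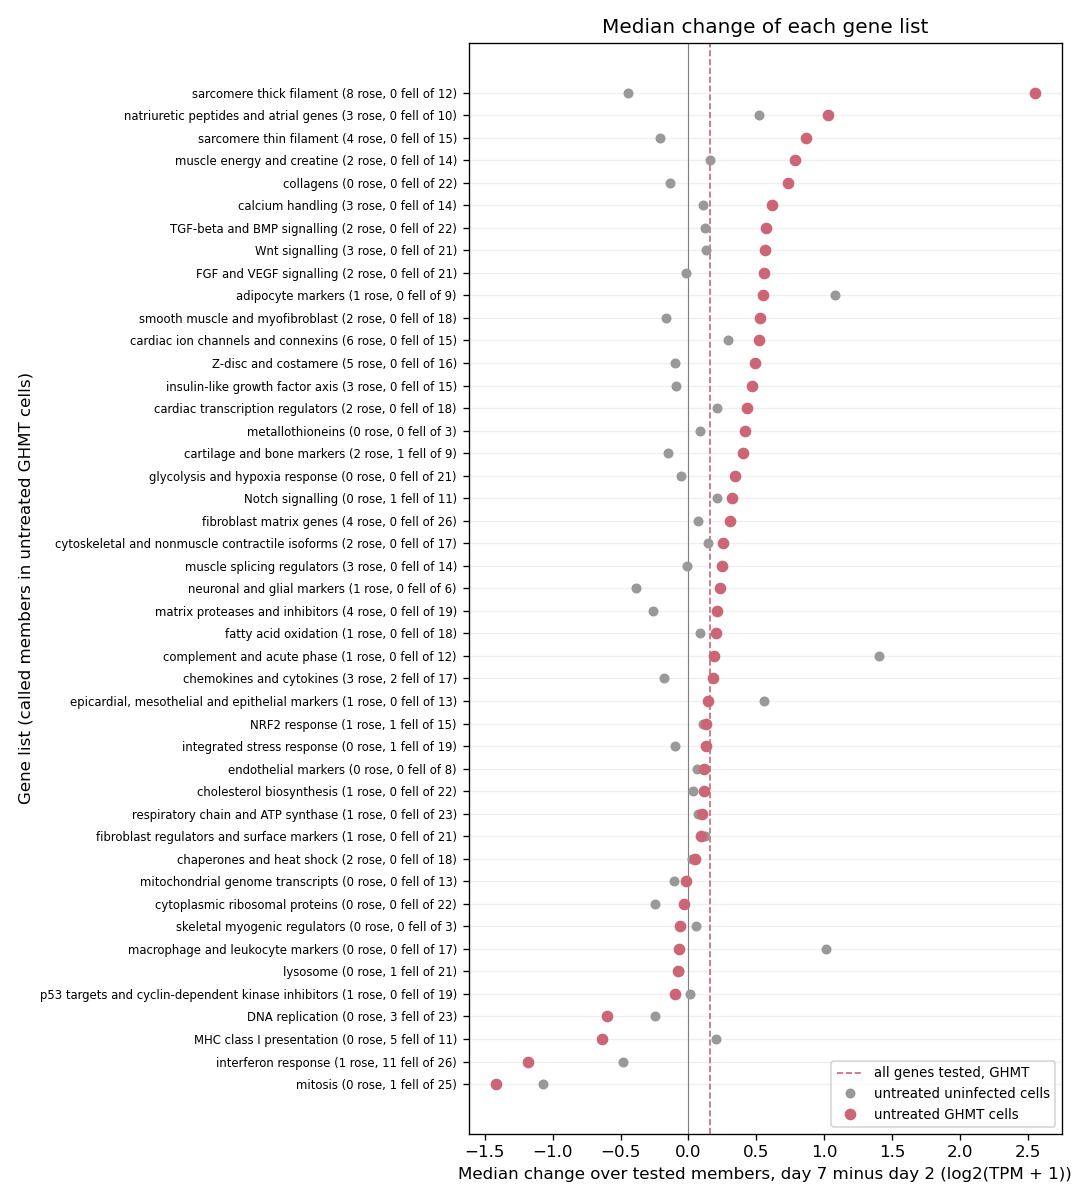
Median change of log2(TPM + 1), day 7 minus day 2, over the tested members of 45 gene lists, in untreated GHMT cells and in untreated uninfected cells, with the counts of called members in GHMT cells beside each name (the tested members differ between arms, 12 and 3 for thick filament genes) and a dashed line at the median of all genes in GHMT cells. Thick filament genes have the highest median in GHMT cells and mitosis genes the lowest, and mitosis is the lowest list in uninfected cells too.

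The same days were compared in uninfected untreated cells to learn which changes also came with time in culture. There, 427 of 19979 genes were called (2.14%), 234 rising (1.17%) and 193 falling (0.966%). The count was 175 and 123 without day 2 replicate 1 and 2, and 172, 158 and 142 without day 7 replicate 1, 2 and 3, and 882 with the replicate block. The 44 genes that rose in both arms were 6.46% of the GHMT rises and 18.8% of the uninfected rises, and the 17 that fell in both were 5.57% and 8.81% of the falls. The difference of the change between the arms was called for 313 of 21801 genes (1.44%), with 185 more positive in GHMT cells (0.849%) and 128 more negative (0.587%). It was 202 without uninfected day 2 replicate 1, 206 without uninfected day 2 replicate 2, and 513 with the replicate block. The arms were deposited in separate tables, so only changes within a table were compared, not levels.

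Contractile genes differed between the arms. Tnnc1 changed by -0.21 ± 0.19 in uninfected cells, and the difference between the arms was 3.60 ± 0.36, adjusted p = 1.20e-06. Myh6 averaged 0 and 0.324 TPM in uninfected cells at days 2 and 7, and the arms differed by 4.52 ± 0.39, adjusted p = 1.74e-07. Of 13 thick filament genes tested across arms, 7 differed, all in the positive direction, and of 15 thin filament genes 6 did. In uninfected cells 3 thick filament and 9 thin filament genes passed the filter, so many of those tested across arms entered only through GHMT cells, where they are high, and the counts and their direction describe the lists only. For Actc1 the difference was 4.64 ± 0.54, adjusted p = 1.29e-05.

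Of 26 interferon response genes, 2 differed in the negative direction and 1 in the positive, with 6 at an unadjusted p under 0.05. The list's median in uninfected cells was -0.48 over 23 tested genes, against -1.18 over 26 in GHMT cells. Ifit2 changed by 0.11 ± 0.31 in uninfected cells and differed by -2.90 ± 0.64, adjusted p = 0.0144. Isg20 differed by -1.85 ± 0.33, adjusted p = 0.00244 and Ifi27 by 1.69 ± 0.35, adjusted p = 0.00796. Mx1, at 2.51 TPM in uninfected cells at day 2, was just short of the threshold (-2.81 ± 0.75, adjusted p = 0.0559), and Cxcl10 was not called (-2.05 ± 0.73, adjusted p = 0.196). Ifi205 was at 336, 626 and 391 TPM at day 2 and 71.7, 275 and 197 TPM at day 7 in GHMT cells, a change that was not called there (-1.46 ± 0.50, adjusted p = 0.11), while the arms differed by -3.19 ± 0.74, adjusted p = 0.0216; it has close paralogs.

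No mitosis gene differed between the arms by limma, 1 of 25 had an unadjusted p under 0.05, and the list's median in uninfected cells was -1.07. For Mki67 the difference was 0.55 ± 0.87, adjusted p = 0.862. Comp rose in both arms, by 2.18 ± 0.17 in uninfected cells, and the difference was 0.24 ± 0.45, adjusted p = 0.883. Tnmd, a tendon marker, fell in both arms, from 18.8 to 6.77 TPM in GHMT cells (-1.32 ± 0.26, adjusted p = 0.0103) and by 1.17 ± 0.22 in uninfected cells.

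**Figure D5:**
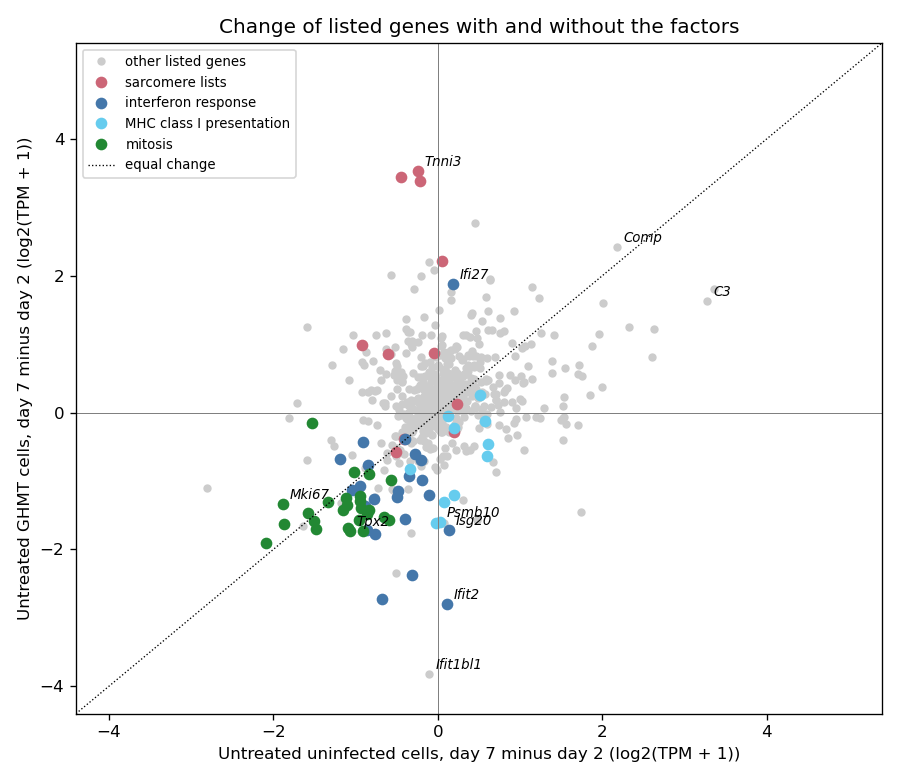
Change of log2(TPM + 1), day 7 minus day 2, of 662 listed genes tested in both arms, in untreated GHMT cells (vertical) against untreated uninfected cells (horizontal), with a dotted line of equal change. Contractile genes such as Tnni3 lie above the line, Ifit2, Isg20 and Psmb10 below it, and mitosis genes near it; Myh6, Actc1 and Mx1 are not drawn because they did not pass the filter in uninfected cells.

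With 1% DMSO, the same interval in GHMT cells gave 2729 rises and 855 falls (13.2% and 4.15%, together 17.4% of 20618 genes). The difference from untreated cells was called for 1 gene, Gm26217, a predicted gene (-1.95 ± 0.20, adjusted p = 0.00215; 0.00485% of genes), while 456 genes had an unadjusted p under 0.05. No gene was called without any 1 of the 3 day 2 libraries with DMSO, and 2 were without untreated day 7 replicate 2.

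Day 21 values of untreated GHMT cells stand beside these without a test. Myh6 averaged 221 ± 25.2 TPM at day 21, against 55.7 at day 7 (SD, n = 3), and Actc1 253 ± 27.7 against 46.6. Tnnc1 averaged 378 ± 56.7 against 319. Mx1 averaged 9.24 ± 4.69 against 39.5, and Comp 100.4 ± 45.7 against 18.3.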

How the data were processed

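RNA of 36 libraries in 12 groups of 3 was compared, with groups taken from the labels. Libraries were made with a TruSeq RNA kit, per the labels' protocols. Per the submitters' processing notes, the tools were kallisto, Trimmomatic and FastQC. The authors deposited TPM values per gene in 1 table for each arm. Not given in the sources used here are genome build, annotation and strand setting. The 97 of 50698 entries that name no gene were left out (0.248 to 1.62% of TPM in the 6 libraries), and repeated symbols were summed, giving 50509. Gene types came from GENCODE M21 (50377 IDs matched).

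Genes that reached 1 TPM in 3 or more of a table's 18 libraries were fitted as log2(TPM + 1), which understates the change of low genes, with 1 mean per group in limma 3.58.1 (R 4.3.3) with a mean-variance trend. All 18 libraries shared 1 estimate of the spread (12 residual degrees of freedom), and the difference between arms used all 36. Tests were two-sided. On simulated data for this comparison (20235 genes, 200 changed), 66% of changes of 1 and 91% of changes of 2 on the log2 scale were recovered, with 15 false calls. The changed genes were drawn from those at 5 TPM or more at day 2. The simulated noise was normal, independent between libraries and of 1 spread per gene in all groups. The rates therefore do not cover genes lower at day 2, such as Myh6 and Actc1, or libraries that deviate together. Libraries with the same replicate number deviated together at days 2 and 7 (correlations 0.177, 0.135 and 0.135, all above 0.1), and on that ground, not on a label, the numbers count as pairs; the fit without a block is the one reported. TPM keeps no depth, so no counting interval is given.

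The members and gene lists were chosen with earlier results of these data known. Named were 23 fixed genes, the 12 largest rises and falls at 5 TPM or more without overlap, up to 4 called genes each way per list, and the 5 largest each way of each difference; other genes named were chosen after their values were seen. Alternatives changed the pseudocount, filter, scaling, variance trend, block and libraries.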

Additional observations from a re-analysis of the deposited data

Results flagged for a closer look

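The change from day 2 to day 7 differed between untreated GHMT cells and untreated uninfected cells, by a test of the difference itself in limma over all 36 libraries, for 45 of the 119 named genes. Values are differences of log2 changes, GHMT minus uninfected, and adjusted p-values ran from 1.74e-07 to 0.0488. Among contractile and Z-disc genes they were Actc1 (4.64), Myh6 (4.52), Myl4 (3.90), Tnni3 (3.76), Tnnc1 (3.60), Myom2 (3.29), Myl1 (3.19), Mybpc3 (2.98), Ttn (2.58), Myl7 (2.32), Tnnt3 (2.17), Tnni1 (1.65), Pdlim3 (1.87), Ldb3 (1.71), Ankrd1 (1.49) and Actn1 (1.33). Among channels, calcium handling, energy, splicing and other muscle genes they were Tbx20 (3.18), Srl (2.58), Hcn4 (2.42), Kcnj5 (2.35), Ryr2 (2.15), Corin (1.79), Slc8a1 (1.32), Cacna1c (1.27), Cox7a1 (1.75), Hspb7 (1.60), Rbpms2 (1.53), Rbm20 (1.49) and Myh11 (2.31). For secreted, matrix and remaining genes with a more positive change they were Ccl17 (2.84), Adamtsl2 (2.33), Alpl (2.18), Timp3 (1.37) and Ifi27 (1.69). For genes with a more negative change they were Ifit1bl1 (-3.70), Ifna4 (-3.55), Ifi205 (-3.19), Ifit2 (-2.90), Ifnb1 (-2.86), Phf11b (-2.24), Isg20 (-1.85), Ccl5 (-1.68), Psmb10 (-1.62), Dll1 (-1.08) and Gsr (-0.75). The named genes were chosen partly by this difference and partly by calls in these data. Their share therefore cannot be set against that of all genes, 313 of 21801 (1.44%). Some of the 45 passed the filter only through GHMT cells, among them Myh6, Actc1, Ifnb1 and Ifna4. In uninfected cells at days 2 and 7, Ifna4 averaged 0 and 0.05 TPM and Ifnb1 0 and 0.03 TPM. For such genes the difference mostly restates the change in GHMT cells. Of the 45, between 2 and 12 lost their call when 1 library was left out, 12 without GHMT day 2 replicate 1 and 11 each without GHMT day 7 replicate 1 and uninfected day 7 replicate 1, and 10 did with a pseudocount of 0.1. Ifit1bl1, Ifna4, Ifi205 and Phf11b have near-identical relatives, and their separate values are uncertain. Groups of 3 libraries are too small for a test of single outlying values.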

How the results depend on the processing

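TPM without depth and 3 libraries a group limit precision. Only the 6 libraries gave 90 rises and 99 falls, and with the replicate block added 0 and 0 in limma (4261 genes at an unadjusted p under 0.05), against 681 and 305 with the spread of all 18 libraries. Median ratio scaling gave 447 and 485, and no filter 393 rises. Leaving out 1 library gave 192 to 880 rises and 131 to 332 falls, 123 to 349 calls in uninfected cells, 202 to 392 for the difference between arms and 0 to 2 for the difference with DMSO. The replicate block gave 882 calls in uninfected cells (427 without) and 513 for the difference between arms (313 without). In uninfected cells the correlations of same-numbered libraries at days 2 and 7 were 0.095, 0.037 and 0.064. Those of differently numbered libraries ran from -0.080 to 0.007. Whether the numbers mark pairs there was not settled. The difference with DMSO had 0 calls with a pseudocount of 0.1 (431 genes at an unadjusted p under 0.05) or a filter at 5 TPM (296), and 2 without the variance trend. Mef2c turned sign under median ratio scaling (-0.11) and protein-coding scaling (-0.011), and without 1 library its lowest and highest values were -0.39 and 0.24. Of 100 named genes called, 52 kept their call without any 1 library, 100 with the replicate block, which added Nppa, 87 after median ratio scaling and 36 with only the 6 libraries. Causes of these shifts were not tested, beyond the fewer samples of the smaller fits.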

Other observations

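Families taken whole by gene symbol, after the values of some members had been seen, extend the groups above. Their counts of calls stand beside 3.3% of all genes tested that rose and 1.48% that fell. Of 10 guanylate-binding protein genes, interferon-induced GTPases, 7 fell and none rose, with a median change of -1.65 against 0.16 for all genes; 2 fell without day 7 replicate 1, and 3 without day 2 replicate 1 or 2 or day 7 replicate 2. Gbp2 was at 387, 479.9 and 342 TPM at day 2 and 64.3, 97.01 and 135 TPM at day 7, with no overlap (-2.07 ± 0.38, adjusted p = 0.0072). Of 8 immunity-related GTPase genes, 5 fell and none rose (median -1.93), and 1 fell without replicate 1 of either day, and 2 without replicate 2 of either day. Reads may divide uncertainly within both families. In uninfected cells their medians were -0.63 over 7 tested genes and -0.56 over 6. Values at day 2 spread widely there, for example 74.88 ± 101.2 TPM for Gbp3 and 28.37 ± 40.93 TPM for Iigp1 (SD, n = 3). At day 7 they were 18.72 ± 3.515 and 7.026 ± 2.32 TPM. These medians and the differences between arms are therefore imprecise. The arms differed by limma for 1 of 10 and 0 of 8 genes, with 4 and 3 at an unadjusted p under 0.05. Of 12 PARP family genes tested, 6 fell and none rose, and 3 fell without day 2 replicate 2, day 7 replicate 1 or day 7 replicate 2. The PARP median was -0.55 in GHMT cells and -0.14 in uninfected cells. The arms differed by limma for 0 of the 12, with 5 at an unadjusted p under 0.05. Parp3 was at 141, 144 and 143 TPM at day 2 and 78.9, 83.5 and 84.7 TPM at day 7 (-0.79 ± 0.10, adjusted p = 0.00088). None of the 14 standard alpha and beta proteasome subunit genes was called by limma, 2 had an unadjusted p under 0.05, beside the 3 falls of the immunoproteasome genes.

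Of 8 desmosome and intercalated disc genes, which join heart muscle cells, 4 rose and none fell, and 4 rose without any 1 library. Dsp, encoding desmoplakin, was at 16.9, 23.7 and 18.8 TPM at day 2 and 113, 84.4 and 45.8 TPM at day 7 (1.90 ± 0.33, adjusted p = 0.00473). Pkp2, encoding plakophilin 2, was at 11.98, 13.3 and 11.4 TPM at day 2 and 58.00, 42.7 and 33.1 TPM at day 7, with no overlap (1.75 ± 0.18, adjusted p = 0.000323). In the Serpina3 cluster of protease inhibitors, 9 of 11 genes were tested and 5 rose, with 3 rising without day 2 replicate 1 or day 7 replicate 2. Serpina3n was at 199, 604 and 373 TPM at day 2 and 1172, 1586 and 1549.8 TPM at day 7 (1.999 ± 0.39, adjusted p = 0.00995); its copies are closely related, and their separate values are uncertain. In uninfected cells Serpina3n averaged 18 TPM at day 2 and 109 at day 7, the difference between the arms was -0.39 (adjusted p = 0.87), and the cluster's median was 1.42 over 5 tested genes against 1.19 over 9 in GHMT cells. Of 21 basement membrane genes, 19 were tested and 4 rose, but 1 rose without replicate 1 or 2 of day 2 or replicate 2 or 3 of day 7, 2 without day 7 replicate 1, and 8 without day 2 replicate 3. Their median was 0.70 in GHMT cells and 0.14 over 18 tested genes in uninfected cells. The arms differed by limma for 0 of the 19, with 8 at an unadjusted p under 0.05.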
